A study of Mus musculus with 6 samples.

Results

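Interferon-stimulated genes were examined as a set of 48, taken by symbol from the 34866 gene rows of the count table, and all 48 were found there and passed the filter on low counts, as did 14017 genes in all. RNA of antral mucosa (the antrum is the stomach's lower end) was sequenced in bulk in 3 Muc6 +/+ (wild type) and 3 Muc6 -/- (knockout) libraries. Muc6 is a gel-forming mucin made by the glands of the antrum, and the series asks how its loss relates to gastric carcinogenesis. Neither strain nor age is among the labels used here, and the allele is described only as a newly generated knockout. Levels are given as CPM, counts per 1000000 of the composition-scaled library size, and triplets of values run in the order of replicates 1, 2 and 3. Each change is the log2 ratio of the knockout to the wild-type level, with a standard error (SE), and a gene is said to have risen or fallen only at an edgeR quasi-likelihood adjusted p under 0.05.

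Type I and type III interferons are mostly secreted when cells sense foreign or misplaced nucleic acids. They act through JAK kinases on a transcription factor complex that includes STAT2 and IRF9 and binds the interferon-stimulated response element (ISRE), while interferon gamma (type II) acts on the gamma-activated site (GAS). The target genes encode sensors, transcription factors, antiviral effectors and GTPases that attack pathogen vacuoles, and in the gut many of them are made by the epithelium as well as by immune cells.

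Total estimated counts per library were 19839799 to 21354029. Wild-type Muc6 stood at 396, 403 and 510 CPM, while the knockout libraries, at 0.0425, 0 and 0 CPM, held 1 count of it in all. The antral markers Gkn1, Gkn2, Tff1, Tff2, Muc5ac and Gast were detected in every library, with summed wild-type levels of 163334 to 189599 CPM against 50035 to 63989 CPM in knockouts, where Tff2 rose by 1.42 (edgeR adjusted p = 0.00222) and the other 5 fell, Gast by 5.99 on the log2 scale (adjusted p = 0.000498). The first libraries of both genotypes stood apart on the second principal component (19.6% of variance), at 62.6 and 43.3 beside -43.7 to -18.8 for the others. Of 4 Y-linked genes, all 4 were higher in the knockout, with summed wild-type levels of 5.85 to 6.73 CPM against 132 to 139 CPM in knockouts, so that sex and genotype cannot be told apart in any result here. In these bulk samples more cells of a type and more RNA per cell likewise cannot be told apart.

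Most of the 48 genes rose in the knockout. At an adjusted p under 0.05, 34 rose, 1 fell and 13 did not pass, while over all tested genes 38.4% passed, 19.3% as rises and 19.2% as falls. The median log2 fold change of the members was 2.15, beside 0.02 over all tested genes. A rise of at least 2-fold was found for 32 members and of at least 8-fold for 12, beside 9.16% and 2.64% of all tested genes. The 3 knockout libraries lay wholly above the 3 wild-type libraries for 39 members and wholly below for 1, beside 28.2% and 26.6% of all tested genes. The 48 genes together made up 0.0608% to 0.0742% of wild-type counts and 0.122% to 0.221% of knockout counts. Without the first library of each genotype, 39 rose, among them 33 of the 34. Calls over all genes grew as well, to 3394 rises and 3474 falls of 14321 tested, beside 2699 and 2687 of 14017. With scaling to total counts, which raised the median of all genes from 0.02 to 0.43, 42 members were higher and none lower, beside 40.9% and 7.78% of all tested genes.

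**Figure D1:**
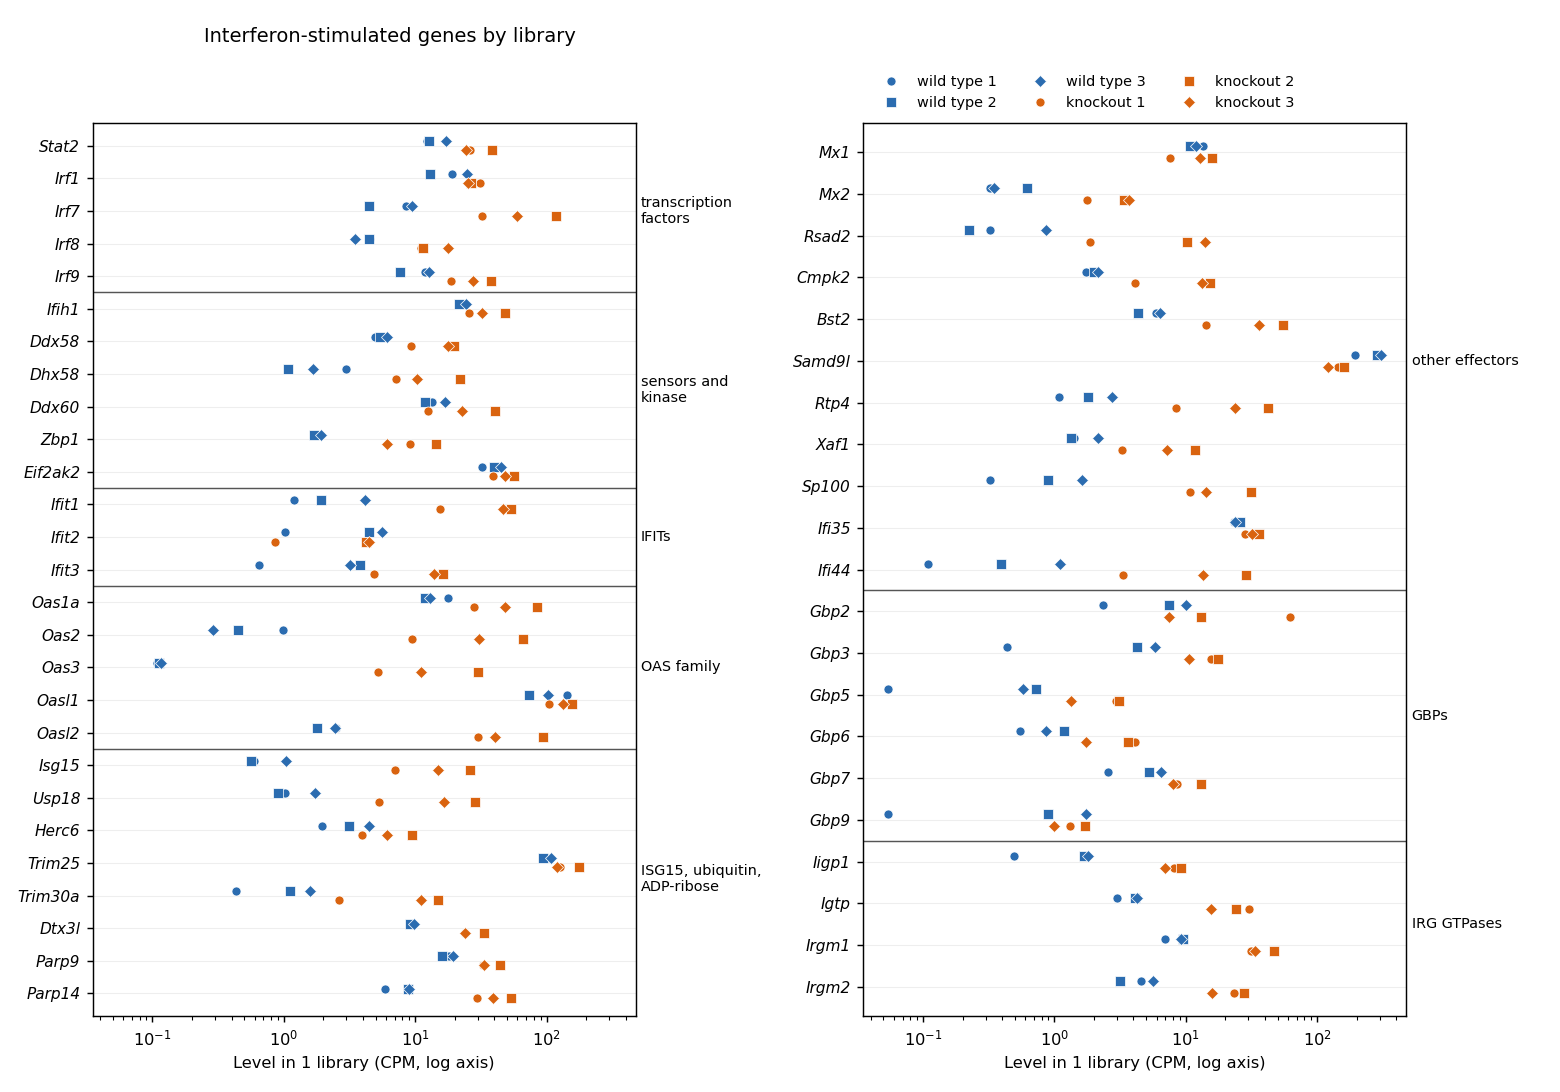
Level of each of the 48 interferon-stimulated genes in each library, in CPM on a log axis, grouped by role, with wild-type libraries in blue and knockout libraries in orange. The orange points lie wholly above the blue ones for 39 genes and wholly below for Samd9l, and Oas3 (from at most 0.116 to at least 5.18 CPM) and Oasl2 (from at most 2.5 to at least 30 CPM) show the widest gaps.

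RefSeq promoter sequences (GRCm38.p6, the 250 bases before to 50 bases after a start site) were at hand for 36 of the 48 genes and were searched on both strands for the ISRE core (GAAA, any 2 bases, GAAA) and for GAS as TTCNNNGAA. An ISRE match was present in 20 of the 36 genes (55.6%), beside 3.99% of 27025 genes with a promoter, and a GAS match in 11 (30.6%), beside 9.55%. ISRE matches were in 13 of 24 members that rose and in 7 of the 12 others. ISRE matches may overlap each other, and an ISRE and a GAS match overlapped in Bst2. A match describes these letters and is not evidence of binding. The stretches shown come from genes of different roles and are written 5′ to 3′ on the strand of the gene, ending before the start site, with every ISRE or GAS match in capitals. They were chosen after the values were seen, to set genes that rose beside genes that did not pass.
Isg15: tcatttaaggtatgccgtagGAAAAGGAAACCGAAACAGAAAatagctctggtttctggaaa
Ifit1: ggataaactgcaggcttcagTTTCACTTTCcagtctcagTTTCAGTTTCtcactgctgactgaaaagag
Oas3: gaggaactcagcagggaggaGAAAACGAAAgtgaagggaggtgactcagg
Oas1a: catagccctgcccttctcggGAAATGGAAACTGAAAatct
Bst2: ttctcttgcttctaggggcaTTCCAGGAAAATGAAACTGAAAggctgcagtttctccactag
Irgm1: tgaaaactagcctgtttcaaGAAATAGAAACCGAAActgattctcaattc
Igtp: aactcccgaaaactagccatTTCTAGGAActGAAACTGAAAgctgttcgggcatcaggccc
Irgm2: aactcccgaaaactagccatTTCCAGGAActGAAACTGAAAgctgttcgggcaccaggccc
Gbp5: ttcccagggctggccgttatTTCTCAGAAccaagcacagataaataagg
Ddx60: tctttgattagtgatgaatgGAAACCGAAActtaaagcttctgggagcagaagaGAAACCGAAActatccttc
Gbp2: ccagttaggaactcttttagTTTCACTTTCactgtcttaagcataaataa
Irf1: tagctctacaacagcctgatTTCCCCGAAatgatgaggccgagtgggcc

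The stretch of Isg15 (chr4:156200855-156200916, minus strand) holds 3 overlapping ISRE matches that begin 78 to 66 bases before the start site. Those of Ifit1 (chr19:34640765-34640833, plus strand), Oas1a (chr5:120907526-120907565, minus strand) and Irgm1 (chr11:48871421-48871470, minus strand) hold 2 each, and that of Oas3 (chr5:120777705-120777754, minus strand) holds 1. In Bst2 (chr8:71537567-71537628, minus strand) a GAS match runs into 2 ISRE matches. The neighbours Igtp (chr11:58199491-58199551) and Irgm2 (chr11:58214882-58214942), both on the plus strand, carry a GAS and an ISRE match at the same spacing, and 59 of the 61 bases shown are identical between them. Gbp5 (chr3:142496862-142496910, plus strand) is shown by the GAS match nearest its start site. The last 3 belong to genes that did not pass the test. Ddx60 (chr8:61928014-61928086, plus strand) has 2 ISRE matches, Gbp2 (chr3:142620584-142620633, plus strand) has 1, and Irf1 (chr11:53769904-53769952, plus strand) has a GAS match.

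**Figure D2:**
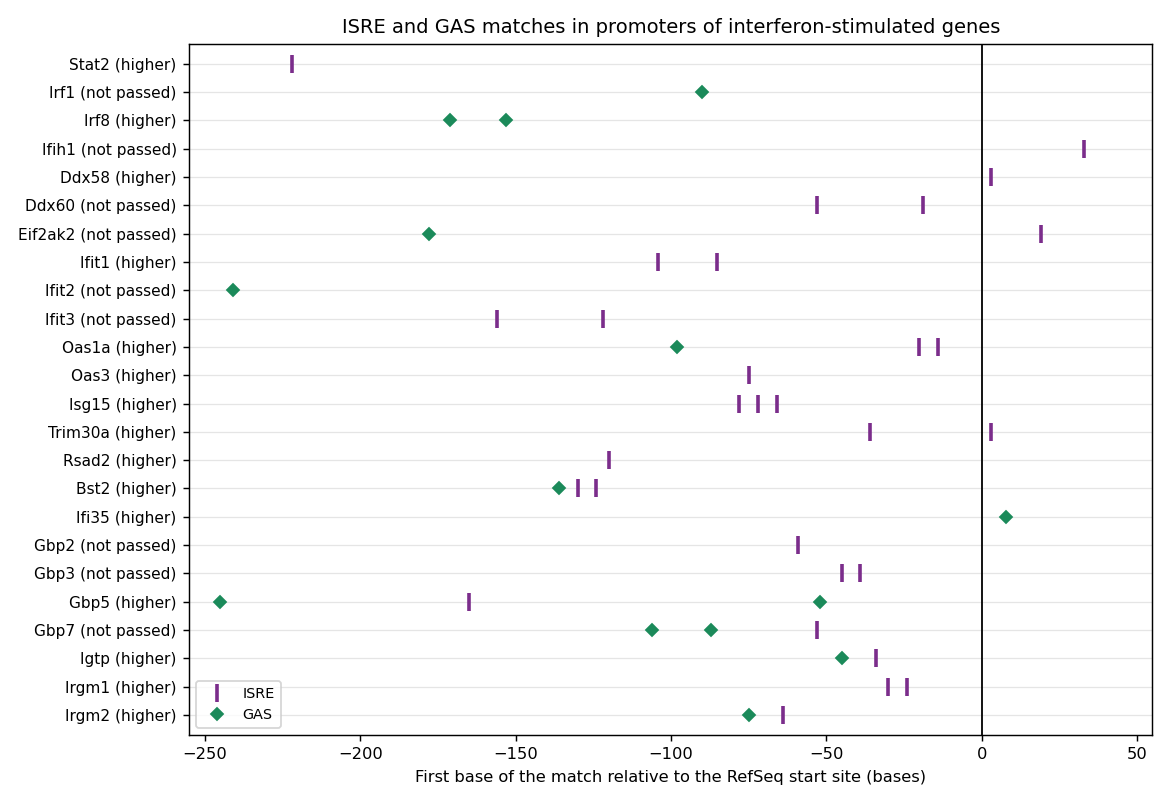
Position of ISRE and GAS matches, as bases from the RefSeq start site (vertical line), in the 24 members whose promoter holds at least 1 match, with each gene's result in brackets. Most matches lie before the start site, the 3 of Isg15 among them, and genes that did not pass carry them too.

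Among the 5 transcription factors, 4 rose and Irf1 did not pass. Irf7, the factor that amplifies type I interferon production, was at 8.58, 4.44 and 9.4 CPM against 32.1, 118 and 59.6 CPM, a log2 change of 3.23 (SE 0.58, edgeR adjusted p = 0.00971). Every knockout library was above every wild-type library, and knockout 2 was 3.68 times knockout 1. Irf8, a factor of myeloid and dendritic cells, rose by 1.69 (SE 0.25, adjusted p = 0.00228), from 4.51, 4.44 and 3.48 to 11, 11.5 and 17.7 CPM. Irf9 and Stat2, which encode subunits of the ISRE-binding complex, both rose. Irf9 went from 11.8, 7.65 and 12.8 to 18.6, 37.8 and 27.4 CPM (log2 1.37, SE 0.30, adjusted p = 0.0117). Stat2 went from 12.4, 12.8 and 17.1 to 26, 38.6 and 24.3 CPM (1.07, SE 0.22, adjusted p = 0.00806). Irf1, a well-known early target of interferon gamma, was at 19.1, 12.9 and 24.7 CPM against 31.2, 26.7 and 25.3 CPM (0.55, SE 0.23, adjusted p = 0.093). Its groups did not overlap, but wild type 3 lay just under knockout 3, and without wild type 3 it passed (0.0354), as it did with total counts (0.0106). Without wild type 2 its value was 0.35 (0.183). Annotated genes overlap Irf7 (Phrf1, opposite strand), Irf8 (Gm20388, same strand) and Irf9 (Rnf31, same strand). Wild-type and knockout counts were 918 and 2372 for Phrf1, 5399 and 6356 for Gm20388, and 236 and 853 for Rnf31. Irf7 had 399 and 4970, Irf8 222 and 941, and Irf9 575 and 1975. Whether counting used the strand is not given in the sources used here, and strand cannot separate partners on the same strand. These levels may therefore include reads of the partner.

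The group of nucleic acid sensors and the kinase PKR had 3 of 6 members higher and none lower. Zbp1, a sensor of Z-form nucleic acid that can trigger cell death, rose by 2.48 (SE 0.35, adjusted p = 0.00205), from 1.74, 1.69 and 1.91 to 9.13, 14.5 and 6.15 CPM. The 3 wild-type values were nearly equal. Ddx58, which encodes the RNA sensor RIG-I, rose by 1.51 (SE 0.29, adjusted p = 0.0065), from 4.94, 5.4 and 6.09 to 9.35, 19.9 and 17.7 CPM. Dhx58, which encodes the related LGP2, rose by 2.78 (SE 0.55, adjusted p = 0.00817), from 2.99, 1.07 and 1.68 to 7.14, 22.1 and 10.4 CPM. Knockout 1 was the lowest knockout library for both of these helicase genes. The third helicase of this family, Ifih1 (MDA5), was at 23.1, 21.7 and 24.2 CPM against 25.6, 48.4 and 32.1 CPM, with no overlap (0.62, SE 0.22, adjusted p = 0.0638). It passed without knockout 1 (0.0191), and without knockout 2 its value was 0.33 (0.166). Ddx60, a helicase that assists RIG-I, was at 13.5, 11.8 and 16.8 CPM against 12.6, 40.4 and 22.6 CPM (0.85, SE 0.41, adjusted p = 0.153). Here knockout 1 lay within the wild-type range, and without knockout 1 the gene passed (0.0191), whereas without knockout 2 its value was 0.33 (0.422). Eif2ak2, which encodes PKR and had the largest mean CPM of the group, was at 32.1, 39.5 and 45 CPM against 39.2, 57 and 47.9 CPM, with overlap (0.31, SE 0.18, adjusted p = 0.207). Eif2ak2 passed with total counts (0.73, adjusted p = 0.0139) and with the GC trend removed (0.61, adjusted p = 0.0243).

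The 3 IFIT genes, whose products bind foreign RNA ends and block translation, lie in 1 cluster on chromosome 19, and 1 of them rose. Ifit1 (34640871 to 34650009, mm10, plus strand) rose by 4.0 (SE 0.68, adjusted p = 0.00779), from 1.2, 1.91 and 4.18 to 15.5, 53.8 and 46.7 CPM. Ifit3 (34583531 to 34588731) was at 0.652, 3.77 and 3.19 CPM against 4.89, 16.2 and 14 CPM, without overlap, and stood at the threshold (2.20, SE 0.71, adjusted p = 0.0503). It passed in 8 of 17 alternative settings, among them without knockout 1 (0.0258) and with DESeq2 (0.00182). Ifit2 (34550694 to 34576419) was at 1.03, 4.44 and 5.57 CPM against 0.85, 4.24 and 4.49 CPM (-0.20, SE 0.77, adjusted p = 0.854), and in both genotypes library 1 was the lowest. The close copies Ifit3b and Ifit1bl1 rose by 2.31 (adjusted p = 0.0347) and 4.50 (adjusted p = 0.00363), and reads may be divided between copies. The call of Ifit3b ended without wild type 2, knockout 2 or knockout 3.

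In the OAS family, whose enzymes make the 2-5 oligoadenylates that switch on RNase L, 4 of 5 members rose. Oas3 rose most of all members, by 7.03 (SE 0.88, adjusted p = 0.00193). It had 6 counts in wild type (0.109, 0.112 and 0.116 CPM) and 1102 in the knockout (5.18, 30.1 and 11.1 CPM). Its neighbour Oas2 rose by 5.93 (SE 0.97, adjusted p = 0.00746), from 0.978, 0.45 and 0.29 to 9.52, 66.6 and 30.5 CPM. Both genes were close to silent in wild type, and in the knockout both followed the order 2, 3, 1. Oasl2, an OAS-like gene, rose by 4.60 (SE 0.52, adjusted p = 0.0017), from 2.5, 1.8 and 2.44 to 30, 93.5 and 40.3 CPM. Oas1a rose by 1.91 (SE 0.42, adjusted p = 0.015), from 17.9, 11.8 and 12.9 to 28.1, 84.2 and 48.5 CPM, and its close copy Oas1g rose by 1.99 (adjusted p = 0.0157). The calls of both ended without wild type 2 or wild type 3, with an adjusted p for Oas1a of 0.0666 and 0.061. Oasl1, which lies next to Oasl2 and represses translation of Irf7, did not pass (0.30, SE 0.26, adjusted p = 0.402). It was at 144, 73.7 and 103 CPM against 105, 156 and 134 CPM, and the groups overlapped widely. Oasl1 passed only without both libraries numbered 1 (0.69, adjusted p = 0.0136).

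Genes for ISG15, ubiquitin and ADP-ribose enzymes rose in 7 of 8 cases. Isg15, the ubiquitin-like modifier, rose by 4.43 (SE 0.56, adjusted p = 0.00168), from 0.598, 0.562 and 1.04 to 6.97, 26 and 14.8 CPM. Usp18, the protease that removes it and dampens receptor signalling, rose by 3.77 (SE 0.67, adjusted p = 0.00693), from a mean of 1.22 ± 0.452 to 16.8 ± 11.6 CPM (SD, n = 3 each). Herc6, the mouse ligase for ISG15, was at 1.96, 3.15 and 4.47 CPM against 3.95, 9.43 and 6.15 CPM, with overlap (1.03, SE 0.42, adjusted p = 0.092). Herc6 passed with total counts (0.0264), with the GC trend removed (0.021), without knockout 1 (0.0476) and without both libraries numbered 1 (0.0265). The chromosome 16 trio Parp14, Dtx3l and Parp9, which add ADP-ribose or ubiquitin to proteins, had small SEs. Dtx3l was at 9.18, 9.17 and 9.74 CPM against 24.1, 33.4 and 24.1 CPM (1.54, SE 0.17, adjusted p = 0.000767), and Parp14 at 5.92, 8.83 and 9.05 against 29.5, 53.6 and 39.1 CPM (2.36, SE 0.26, adjusted p = 0.000935). Parp9 rose by 1.05 (SE 0.16, adjusted p = 0.0026), from 18.1, 15.9 and 19.4 to 32.8, 44.4 and 33.2 CPM. The annotated ends of Dtx3l and Parp9 overlap on opposite strands. Trim30a, an inhibitor of inflammatory signalling, rose by 3.19 (SE 0.74, adjusted p = 0.0157), from 1.04 ± 0.57 to 9.5 ± 6.23 CPM, but not without wild type 2 (0.0684). Trim25, the ligase that activates RIG-I, had the largest mean CPM of the group, at 103, 93.9 and 108 against 126, 176 and 121 CPM. Its rise was small (0.48, SE 0.16, adjusted p = 0.0478). The call was lost on leaving out any of the wild-type libraries, or knockout 2 (0.0791 to 0.15), and with limma-voom, the GC trend removed or both libraries numbered 1 left out (0.0544 to 0.0593).

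Of 11 other antiviral effectors, 9 rose, Samd9l fell and Mx1 did not pass. Sp100, a nuclear body protein that restrains DNA viruses, rose by 4.31 (SE 0.67, adjusted p = 0.00438), from 0.326, 0.9 and 1.62 to 10.8, 31.5 and 14.2 CPM. Mx2 rose by 2.76 (SE 0.50, adjusted p = 0.00502), from 0.326, 0.619 and 0.348 to 1.78, 3.37 and 3.71 CPM. Its neighbour Mx1, a dynamin-like GTPase against influenza viruses, was at 13.5, 10.8 and 11.9 CPM against 7.6, 15.9 and 12.9 CPM, with full overlap (0.00, SE 0.27, adjusted p = 0.995). The neighbours Cmpk2 and Rsad2, a mitochondrial nucleotide kinase and the enzyme viperin, both rose. Cmpk2 went from 1.74, 2.02 and 2.15 to 4.12, 15.4 and 13.4 CPM (2.47, SE 0.48, adjusted p = 0.00726), and Rsad2 from 0.474 ± 0.347 to 8.74 ± 6.25 CPM (4.20, SE 0.88, adjusted p = 0.0113). The call of Rsad2 ended without wild type 1 (0.0501) or wild type 2 (0.054). Rtp4, a receptor transport protein, rose by 3.74 (SE 0.69, adjusted p = 0.00961), from 1.09, 1.8 and 2.73 to 8.45, 42.6 and 23.9 CPM, and lost its call without wild type 2 (0.0511). Masp1, with 16 and 89 counts against 99 and 1771 of Rtp4, overlaps it on the opposite strand.

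Bst2 (tetherin, which holds budding virus at the membrane) rose by 2.65 (SE 0.51, adjusted p = 0.00989), from 5.98, 4.33 and 6.38 to 14.2, 54.8 and 35.8 CPM. Ifi44 rose by 4.82 (SE 1.09, adjusted p = 0.019), from 0.109, 0.394 and 1.1 to 3.31, 28.6 and 13.5 CPM, and Xaf1, a promoter of cell death, by 2.18 (SE 0.49, adjusted p = 0.0122), from 1.64 ± 0.443 to 7.44 ± 4.29 CPM. The call of Ifi44 ended without wild type 1 (0.0568) or wild type 2 (0.0841) and with no low-count filter (0.0527), and that of Xaf1 without wild type 2 (0.0563) or knockout 2 (0.0508). Ifi35 rose by 0.40 (SE 0.13, adjusted p = 0.0434), from 24.3 ± 1.56 to 32 ± 3.98 CPM, a call that ended without any 1 library other than knockout 1 (0.0716 to 0.154) and with the GC trend removed (0.225). Samd9l, a restrictor of poxvirus translation, went the other way. It was at 193, 285 and 309 CPM against 145, 161 and 120 CPM, a fall by 0.88 on the log2 scale (SE 0.20, adjusted p = 0.0113) with all 3 knockout libraries below all 3 wild-type libraries. The call ended with total counts (-0.47, adjusted p = 0.0851), with the GC trend removed (-0.33, 0.0994) and without wild type 2 (0.0506).

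The guanylate-binding proteins (GBPs), GTPases that coat pathogen vacuoles and are classic targets of interferon gamma, gave 2 rises among 6 members and none lower. Gbp5 rose by 2.43 (SE 0.76, adjusted p = 0.0391), from 0.0543, 0.731 and 0.58 to 2.93, 3.12 and 1.35 CPM, and Gbp6 by 1.86 (SE 0.49, adjusted p = 0.0212), from 0.543, 1.18 and 0.87 to 4.08, 3.66 and 1.74 CPM. Both were at low levels, and neither call held on leaving out wild type 3, knockout 1 or knockout 2, nor did that of Gbp5 without wild type 2 (0.0553 to 0.116). Without both libraries numbered 1, Gbp5 rose by 1.74 (0.0318). Gbp2, the most abundant GBP by mean CPM, stood far higher in knockout 1 than in any other library, at 2.34, 7.48 and 10.1 CPM against 62.2, 13.1 and 7.5 CPM (2.06, SE 0.99, adjusted p = 0.16). Gbp3 was at 0.435, 4.22 and 5.8 CPM against 15.5, 17.6 and 10.5 CPM, without overlap (2.06, SE 0.79, adjusted p = 0.088), and passed without wild type 1 (1.53, adjusted p = 0.00663). Gbp7 was at 2.55, 5.23 and 6.44 CPM against 8.58, 13.1 and 8.02 CPM, also without overlap (1.06, SE 0.37, adjusted p = 0.0545), and passed in 8 of 17 alternative settings, among them DESeq2 (0.0243) and the GC trend removed (0.0123). Gbp9 overlapped, at 0.0543, 0.9 and 1.74 CPM against 1.32, 1.7 and 1 CPM (0.58, SE 0.86, adjusted p = 0.617). Wild type 1 was the lowest library for each of these 6 genes, and wild type 1 also held the least of the leukocyte gene Ptprc, at 1.25 CPM against 3.66 and 5.16 CPM. The part of leukocyte content in the GBP values was not tested. Gbp9 had 47 and 95 counts in all and overlaps Gbp4 (39 and 114) and Gbp8 (18 and 63) on the same strand. GBPs are close copies of each other, so reads may be shared, and Gbp10 was listed at 0 in every library.

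All 4 immunity-related GTPases (IRGs), a family that takes part in the defence against pathogens in vacuoles, rose. Irgm1 rose by 2.12 (SE 0.21, adjusted p = 0.000586), from 6.95, 9.51 and 9.28 to 31.4, 47 and 33.4 CPM. Igtp (Irgm3) rose by 2.63 (SE 0.28, adjusted p = 0.000753), from 2.99, 4.11 and 4.23 to 30.4, 24.1 and 15.5 CPM, with knockout 1 the highest. Those were the smallest adjusted p-values of the 48. Irgm2 rose by 2.32 (SE 0.29, adjusted p = 0.0012), from 4.56, 3.15 and 5.68 to 23.1, 27.9 and 15.9 CPM. Its annotated span on chromosome 11 (58199618 to 58222782, mm10) overlaps most of Igtp (58199556 to 58207591) on the same strand, so reads may be shared in addition to the near-identical promoter stretches. Iigp1, an effector of this family on chromosome 18, rose by 2.62 (SE 0.47, adjusted p = 0.00493), from 0.489, 1.69 and 1.8 to 8.16, 9.27 and 6.98 CPM. No setting that was tried ended any of these 4 calls.

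**Figure D3:**
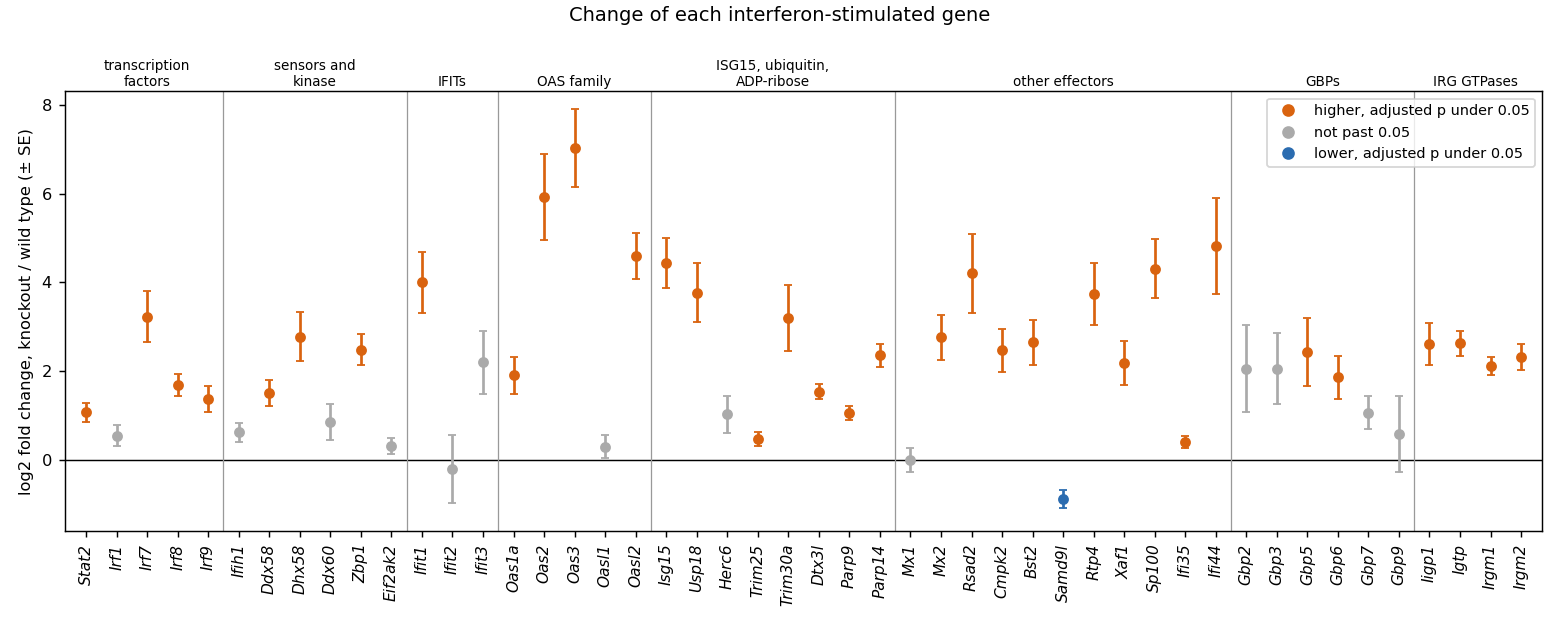
log2 fold change of knockout over wild type with its SE for the 48 members, grouped by role, from the edgeR fit of all 6 libraries. Orange genes rose, grey ones did not pass and Samd9l (blue) fell. All 4 IRGs rose, at 2.12 to 2.63, and Oas3 (7.03) and Oas2 (5.93) rose most.

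Compared per kilobase of the longest annotated transcript, Samd9l (49.2 CPM per kb) and Oasl1 (49.1) had the highest mean levels of the set in wild type, followed by Trim25 (18.1) and Ifi35 (17.8). In the knockout Oasl1 (60.3) was followed by Bst2 (44.1), Oas1a (28.4) and Samd9l (26.6). Of the 4 genes highest in wild type, Samd9l fell, Oasl1 did not pass, and Trim25 and Ifi35 rose by under 0.5 on the log2 scale. Oas3 (0.0238), Rsad2 (0.113) and Gbp5 (0.121) had the lowest wild-type levels.

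The level of these genes differed among the knockout libraries. The median over the 48 members of log2(CPM + 0.5) minus the wild-type mean was -0.14, -0.02 and 0.26 in wild type and 1.31, 2.46 and 1.81 in the knockout. Of the 34 members that rose, 29 (85.3%) were highest in knockout 2 and 25 (73.5%) were lowest in knockout 1, whereas of all 2699 genes that rose 19.9% were highest in knockout 2 and 26% lowest in knockout 1. By median, GBPs were highest in knockout 1 and IRGs in knockout 2, and both were lowest in knockout 3. Their medians were 1.85, 1.55 and 0.76 for GBPs and 2.31, 2.53 and 1.92 for IRGs, beside 3.21, 5.11 and 3.91 for the OAS family and 1.29, 2.69 and 2.5 for the other effectors. As single genes, 4 of 6 GBPs and 3 of 4 IRGs were highest in knockout 2. Some genes of other roles, such as Stat2 and Zbp1, were also lowest in knockout 3 among the knockouts. Wild-type medians ran from -0.91 to 0.63 for GBPs, -1.19 to 0.76 for IFITs and -0.44 to 0.28 for transcription factors, wider in each case than the knockout range, while in the other 5 roles the knockout range was the wider. Whether the roles differ in this order was not tested.

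Without knockout 2 the rise shrank by over 1.5 times for 9 genes that kept their call. These were Oas3 (6.11), Oas2 (5.11), Oasl2 (3.97), Ifi44 (3.97), Sp100 (3.72), Usp18 (3.16), Rtp4 (3.12), Irf7 (2.62) and Dhx58 (2.19). Without wild type 3, in which several near-silent genes were highest, 4 rises grew by as much, to 5.87 for Ifi44, 4.94 for Rsad2, 4.91 for Sp100 and 4.62 for Ifit1. Without wild type 1 that of Oas2 grew to 6.55, and without both libraries numbered 1 those of Oas2 and Dhx58 grew to 6.99 and 3.54. Leaving out 1 library at a time gave 25 to 36 members higher, with the fewest without wild type 2. Limma-voom, which gave 25 higher, ended the calls of Oas2, Oas3, Usp18, Trim25, Trim30a, Rsad2, Cmpk2, Rtp4, Xaf1, Ifi35 and Ifi44 (adjusted p 0.051 to 0.144) and added Gbp3 and Gbp7. In all 17 settings 20 members were higher. These were Stat2, Irf7, Irf8, Irf9, Ddx58, Dhx58, Zbp1, Ifit1, Oasl2, Isg15, Dtx3l, Parp9, Parp14, Mx2, Bst2, Sp100 and the 4 IRGs.

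Markers of other cell types also differed between the genotypes. The leukocyte gene Ptprc rose by 1.66 (adjusted p = 0.0369), from 1.25, 3.66 and 5.16 to 14.6, 8.02 and 9.12 CPM. Of 4 neutrophil markers, 3 of them tested, 1 rose (Csf3r). Summed levels were 0.109 to 0.348 CPM against 157, 2.91 and 3.4 CPM, with Ly6g at 0 in every library but knockout 1. Of 7 macrophage and monocyte markers none passed in edgeR, although 4 had an unadjusted p under 0.05 and 3 passed in DESeq2, with sums of 20 to 85.4 CPM and 93.5 to 188 CPM. For dendritic cells 2 of 4 markers were tested and 1 rose (Itgax), with sums of 0.489 to 2.08 and 4.53 to 6.72 CPM. T and NK cell markers summed to 0.163 to 0.696 and 2.38 to 4.19 CPM. Of these 7 only 2 were tested, and both rose (Cd4 and Gzmb), with Gzmb at 0 in wild type. Of the others, Nkg7 had 0 counts in wild type and 3 in the knockout, and Klrb1c had 2 and 4. Cd8a had 11 and 30, Cd3e 1 and 13, and Cd3g 3 and 38. B and plasma cell markers summed to 0.562 to 1.47 and 235 to 733 CPM. Of these 6 only 4 were tested, and all 4 rose (Cd79a, Jchain, Igkc and Igha). Igha, Igkc and Jchain made up most of the knockout sum. Of the 2 not tested, Mzb1 had 3 counts in wild type and 76 in the knockout. The B cell gene Ms4a1 went the other way, with 17 and 8. Siglech, a marker of plasmacytoid dendritic cells, was at 0.272, 0.394 and 0.29 CPM against 0.127, 0.291 and 0.48 CPM. Another marker listed for those cells, Klk1, was at 187 to 214 CPM in wild type and so is made in quantity by this tissue. In the knockout Klk1 was at 14.2, 78.7 and 169 CPM, wholly below wild type, but did not pass (-1.22, SE 0.82, adjusted p = 0.291). Ccr9 was below 1 CPM throughout. Across knockouts 1, 2 and 3 the macrophage sums were 188, 101 and 93.5 CPM, the dendritic cell sums 4.76, 4.53 and 6.72 CPM, the T and NK cell sums 2.38, 2.87 and 4.19 CPM and the B and plasma cell sums 444, 235 and 733 CPM. By sum, none of these leukocyte lists was highest in knockout 2, nor was that of neutrophils, while the epithelial and fibroblast sums were. Singly, 1 of 7 macrophage, 1 of 7 T and NK cell and 1 of 6 B and plasma cell markers were highest there. So were 3 of 5 epithelial and 1 of 3 fibroblast markers. Lowest in knockout 1 were 2 of the 7 macrophage markers, C1qa (9.05, 13.3 and 13.4 CPM) among them. Of 5 epithelial markers, Epcam rose by 1.16 (adjusted p = 0.000671) and Krt18 by 0.99 (adjusted p = 0.00319). Krt8, the most abundant, fell by 0.50 (adjusted p = 0.0189), and Cdh1 and Krt19 did not pass. The 5 summed to 11518 to 14590 CPM in wild type and to 11198, 11820 and 11240 CPM in knockouts 1, 2 and 3. Of 3 endothelial markers 1 rose (Pecam1, by 1.06, adjusted p = 0.00269), with sums of 10.4 to 17.9 CPM against 31.8 to 46.7 CPM, wholly apart. Fibroblast markers summed to 19.6, 313 and 412 CPM against 198, 247 and 229 CPM, so that wild type 1 stood far below the rest. None of these 3 fibroblast genes passed in edgeR or in DESeq2, and 0 had an unadjusted p under 0.05. The part of these cells in the rise of the 34 genes was not tested.

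**Figure D4:**
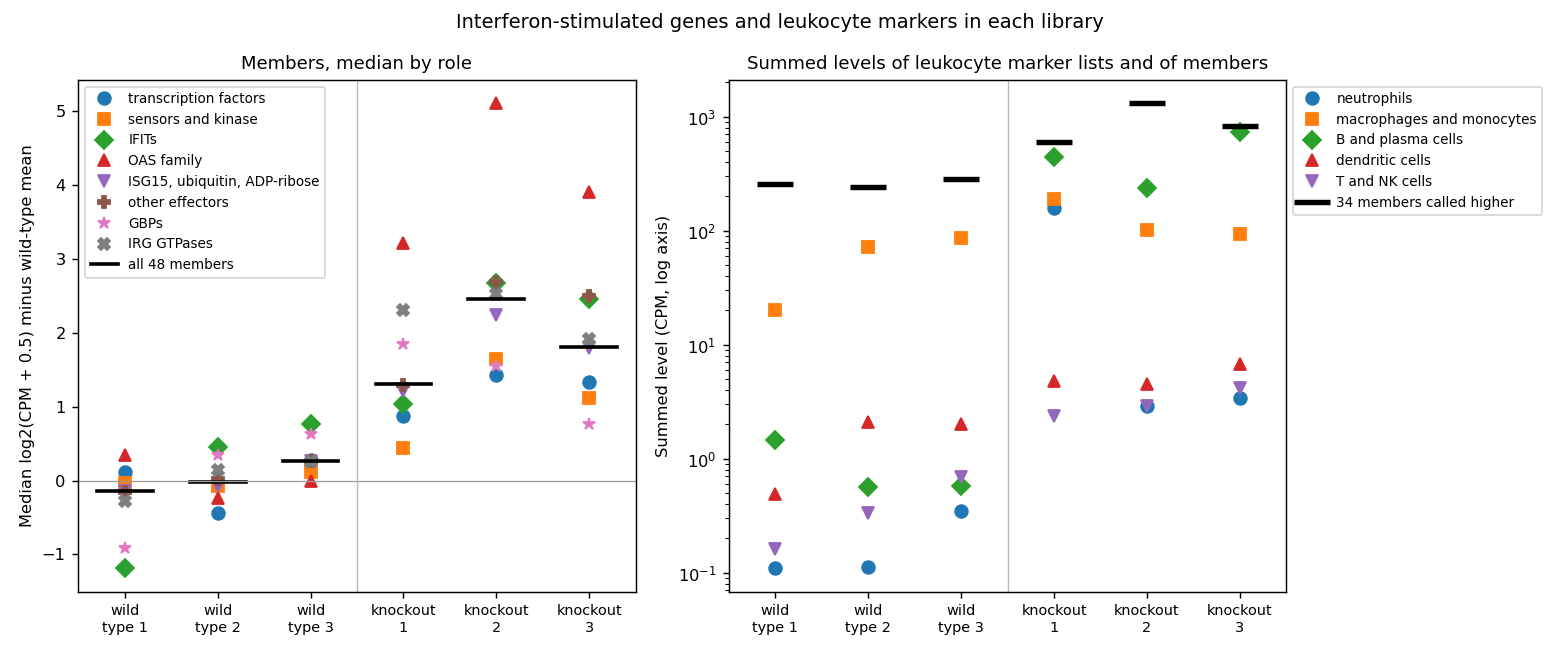
Left, median over the genes of each role of log2(CPM + 0.5) minus the wild-type mean in each library, with black bars for all 48 members. Right, summed CPM (log axis) of 5 leukocyte marker lists and of the 34 members that rose. Most roles were highest in knockout 2 (all members 2.46), while neutrophil markers reached 157 CPM in knockout 1 alone.

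Other genes of the pathway, 71 in all with 58 tested, were higher in 21 cases and lower in 4, with a median log2 fold change of 0.75. Interferon genes themselves were almost silent. Of 10 ligand genes, Ifna1, Ifna2, Ifna4, Ifna5 and Ifnl2 had no count in any library, and in the knockout there were 4 counts of Ifng (all in knockout 1), 3 of Ifnk, 1 of Ifnb1 and 1 of Ifnl3, with none in wild type. At this depth 3 counts over a group correspond to 0.0562 CPM (wild type) or 0.0425 CPM (knockout), a limit that covers counting error only. Ifne, the interferon of epithelia, was the only ligand tested, at 0.815, 1.52 and 1.04 CPM against 0.977, 0.748 and 0.567 CPM (-0.55, SE 0.46, adjusted p = 0.377).

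Receptors, kinases and transcription factors gave 3 rises (25%) and 2 falls among 12, shares near the 19.3% and 19.2% of all tested genes. The type I receptor chain Ifnar1 rose by 0.88 (SE 0.17, adjusted p = 0.00603), from 14.5, 19.1 and 21.1 to 37.6, 31.2 and 31.6 CPM. Ifnar2, the other type I chain, and Il10rb, a chain shared by type III interferon and interleukins, rose by 0.68 (adjusted p = 0.0386) and 0.42 (adjusted p = 0.0214). The call of Ifnar2 ended without any 1 library but wild type 1 (0.0621 to 0.101) or without both libraries numbered 1 (0.0761), and that of Il10rb on leaving out wild type 2 or 3 or knockout 2 (0.0684 to 0.0823). Ifnlr1, the chain specific to type III interferon, was at 20.4, 17.5 and 17.6 CPM against 16.9, 22.5 and 15.2 CPM, with overlap (-0.03, SE 0.17, adjusted p = 0.92). Jak2, a kinase of the interferon gamma receptor, fell by 0.75 on the log2 scale (SE 0.13, adjusted p = 0.00476), from 99.2, 116 and 125 to 59.2, 68.5 and 75.1 CPM, a call lost with total counts (-0.33, 0.0778). Ifngr1, a chain of that receptor, was lower by -0.43 (SE 0.13, adjusted p = 0.0364), and lost its call with total counts (-0.01, 0.964), without any 1 library but wild type 3 (0.0519 to 0.0977), without both libraries numbered 1 (0.0551) and with the GC trend removed (0.0718).

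Among 11 upstream sensors and adaptors, 10 of them tested, Mb21d1, which encodes the DNA sensor cGAS, rose by 1.35 (SE 0.30, adjusted p = 0.011), from 2.23, 2.42 and 1.68 to 4.38, 5.94 and 5.8 CPM, but not without knockout 2 (0.0554). Tlr4, the receptor for bacterial lipopolysaccharide, fell by 0.95 on the log2 scale (SE 0.17, adjusted p = 0.00558), from 61.7, 96.1 and 95.4 to 45.6, 43.3 and 42.3 CPM. Rises were 10% of the tested sensors and adaptors and 16.7% of 6 inhibitors, both under the 19.3% of all tested genes. Of these inhibitors only Socs1, which blocks JAK kinases, passed. It went from 7 counts in wild type (0.109, 0.169 and 0.116 CPM) to 92 in the knockout (1.06, 1.45 and 1.4 CPM), a log2 change of 3.26 (SE 0.52, adjusted p = 0.00313).

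Further induced genes outside the 48 rose in 16 of 29 tested, and Isg20, an RNA exonuclease gene, fell (-0.66, SE 0.15, adjusted p = 0.013), a call lost with total counts (-0.24, 0.228). Lgals3bp, a secreted galectin-binding glycoprotein, rose by 2.04 (SE 0.17, adjusted p = 0.000406), from 110, 82.8 and 89 to 409, 439 and 313 CPM. Ifitm1 and Ifitm2, membrane proteins that block viral entry, rose by 3.76 (SE 0.34, adjusted p = 0.000496) and 0.91 (SE 0.10, adjusted p = 0.000935). Ifitm1 was at 0.435, 0.619 and 0.928 CPM against 8.58, 9.23 and 9.12 CPM, so that its 3 knockout libraries were close to equal, unlike the OAS genes. Ifitm3 of the same family did not pass, at 17.8, 21.9 and 17.1 CPM against 16.8, 80.5 and 65.5 CPM (1.52, SE 0.57, adjusted p = 0.0867), and passed without knockout 1 (1.95, 0.000595). Among the genes that did not pass, Ido1, a tryptophan-degrading enzyme induced by interferon gamma, stood at 0.598, 0.956 and 0.986 CPM against 14.7, 1.66 and 1.48 CPM (2.80, SE 1.0, adjusted p = 0.0666). Without knockout 1 its value was 0.89 (adjusted p = 0.185). Like Gbp2 it was far higher in knockout 1, the library with the neutrophil markers. Whether these go together was not tested. Ido1 was chosen after its values were seen.

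**Figure D5:**
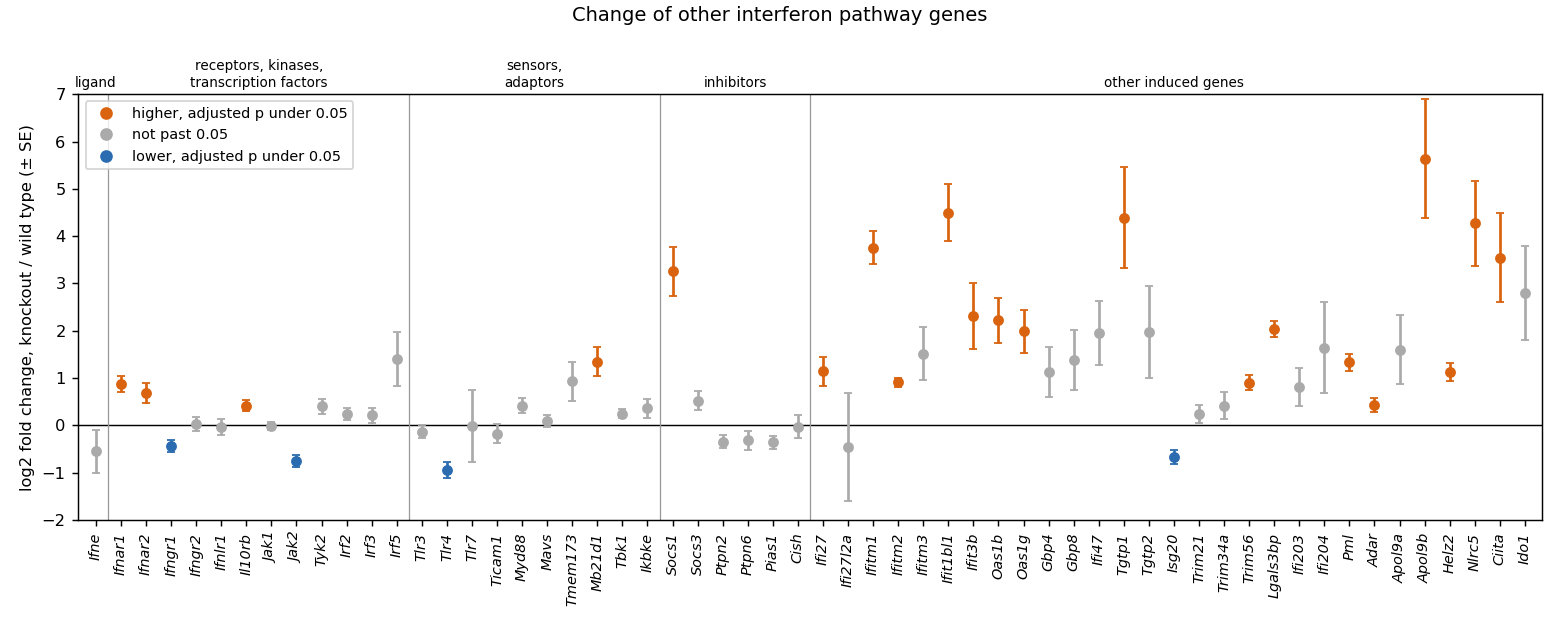
log2 fold change of knockout over wild type with its SE for the 58 tested pathway genes outside the 48 members, grouped by place in the pathway. Ifnar1 (0.88) and Socs1 (3.26) rose, Jak2 (-0.75) and Tlr4 (-0.95) fell, and 16 of 29 further induced genes rose.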

How the data were processed

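The authors deposited estimated counts, 1 row per gene and 1 column per library (6 in all). The values show the unit, since 28.77% to 34.22% of those above 0 in a library are not whole. Per the labels' protocols, the kit was TruSeq Stranded mRNA, and per the submitters' processing notes the build was mm10. For aligner, counter and annotation, the names were not given in the sources used here. Nothing states that replicates were separate animals, so the p-values rest on a spread between samples that may be technical. Within a genotype, libraries differed beyond counting noise (chi-square of 16 to 79.6 for each degree of freedom).

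Counts were rounded to whole numbers. Of 34866 gene identifiers, 34652 were matched to symbols and coordinates in GENCODE M21, and 1 count is worth 0.0416 to 0.058 CPM. Genes were filtered with filterByExpr, scaled with TMM factors and tested in edgeR 4.0.16 (R 4.3.3) by robust quasi-likelihood, with p-values adjusted after Benjamini and Hochberg over all 14017 tested genes. The procedure was also run on simulated data in which few genes changed, up and down alike. That setting differs from these data, where 38.4% of tested genes passed. Alternatives were RLE, upper quartile or total-count scaling, other filters, DESeq2 1.42.0, limma-voom (limma 3.58.1), the replicate number as a block, removal of each library's trend over transcript GC content, and leaving libraries out. Members and lists were chosen with earlier results of these data known. All 48 members are described. Values in every library are given for up to 4 genes per role with the smallest adjusted p and the most abundant gene of each role, and up to 3 other pathway genes per list are named likewise. Further values were added after they were seen. A pathway gene and a marker gene are not reported here and were taken out of their lists. Overlapping annotated genes are named except where the partner had 23 counts or fewer in each genotype (those of Irf1, Herc6, Gbp6 and Gbp7).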

Additional observations from a re-analysis of the deposited data

How the results depend on the processing

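The number of members higher was 25 to 42 over all 17 alternatives and their median log2 fold change 1.91 to 2.57. The number lower, 1, was 0 with total counts, with the GC trend removed, with the block and the GC trend removed together, and 0 to 1 when 1 library was left out. Over all tested genes, total counts gave 5730 higher and 1091 lower and moved the median to 0.43. The median was 0.03 with upper quartile factors, 0.05 with no low-count filter, 0.07 with the GC trend removed and 0.08 with the block as well, and 0.01 to 0.03 when 1 library was left out. Leaving out 1 library gave 1600 to 3045 genes higher and 1721 to 2964 lower. Jak1, at -0.01, was higher with total counts (0.41, adjusted p = 0.00831). The cause of these changes was not tested.

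The replicate numbers are shared between the genotypes, but deviations of same-numbered libraries correlated at 0.252, 0.0908 and 0.191, not all over 0.1, so they were not taken as pairs, and 2 of 6 libraries did not correlate best with their own number. With the replicate block, 33 members were higher and 1 lower, of which 31 were among the 34, and over all genes 2572 were higher and 2497 lower. The block ended the calls of Trim25 (adjusted p = 0.0801), Ifi35 (0.0501), Gbp5 (0.0546), Ifnar2 (0.0542) and Ifngr1 (0.0651), and Ifit3 (0.00263) and Gbp7 (0.0395) passed. With the block and the GC trend removed, 34 members were higher, of which 30 were among the first 34. There Oas1a (0.0623), Trim25 (0.102), Ifi35 (0.159) and Gbp5 (0.0617) were lost, Eif2ak2, Ifit3, Herc6 and Gbp7 gained, and Iigp1 stood at 3.26.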
